A study of Mus musculus with 19 samples.

Results

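The tryptophan hydroxylases and the genes that handle serotonin were followed in epididymal white adipose tissue (eWAT) of C57Bl6/J mice, as 7 genes of the 24237 measured. These were Tph2, Tph1, Ddc, Maoa, Slc6a4, Htr2a and Htr2b, each found by its symbol. Tph2 was selected on its measured level, which is lower in LowMg-HFD mice than in their NormMg counterparts (groups below), so that its values in every comparison that includes HFD-fed mice are given as a description and without a test. Over 17 weeks male mice received food low (LFD) or high (HFD) in fat, each with a normal or a low Mg2+ content. The groups were NormMg-LFD (n = 4, mice 2 to 5), LowMg-LFD (n = 5), NormMg-HFD (n = 5) and LowMg-HFD (n = 5), all of the same strain and with no transgene. RNA of 1 fat depot of each mouse was sequenced as 1 library. Levels are FPKM, that is, fragments scaled by transcript length and by mapped reads, and differences are log2 fold changes of FPKM + 1, a scale that understates the change of genes with low levels.

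Serotonin is made from the amino acid tryptophan in a pair of steps. Tryptophan hydroxylase, which needs the cofactor tetrahydrobiopterin, adds a hydroxyl group and sets the rate, and aromatic L-amino acid decarboxylase (Ddc) then removes the carboxyl group. The hydroxylase is encoded by Tph1, known for serotonin made outside the brain, by gut enterochromaffin cells, mast cells and adipocytes among others, and by Tph2, known as the form of brain stem and gut neurons. The transporter encoded by Slc6a4 takes serotonin up again, monoamine oxidase A (Maoa) breaks it down, and membrane receptors, among them Htr2a and Htr2b, carry its signal into the cell. In fat, serotonin made in the tissue is known to favour lipid storage and to restrain thermogenesis.

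The tissue was checked by marker genes before the members were compared. The 10 adipocyte markers had a mean level of 9.12 to 10.41 on the log2(FPKM + 1) scale in every mouse, with the hormone gene Adipoq between 1072 and 2569 FPKM. Of the neuron markers, Fev, the transcription factor that defines serotonin neurons, was at 0 in 17 of the 19 mice and reached at most 0.20 FPKM, and the synaptic gene Syt1 reached at most 0.26 FPKM. Other neuron markers were present, with Uchl1 at 2.26 to 11.59 FPKM in all 19 mice and Tubb3 and Rbfox3 at up to 4.21 and 3.5 FPKM. A pair of libraries stood apart. NormMg-LFD mouse 3 had a level of 7.23 over the exocrine pancreas markers, against 0.56 to 0.94 in the other mice, and LowMg-HFD mouse 4 had a level of 4.53 over the epididymis and testis markers, against 0.12 to 3.14 in the others. The study's methods place a library with pancreatic tissue in the LowMg-HFD group, where no library of the table stood out in the pancreas markers. The study left that library out and used 4 LowMg-HFD mice. Here all LowMg-HFD libraries and NormMg-LFD mouse 3 were kept in the main fit, so the set of samples differs from the study's. The library labelled NormMg-LFD mouse 3 lay below all libraries labelled LowMg-HFD in its lipid-associated macrophage level (2.86 against 4.14 to 6.54) and in its macrophage level (4.95 against 5.16 to 6.41). Lep, a fat hormone that rose with the HFD, was at 293 to 427 FPKM in all NormMg-LFD libraries against 663 to 1226 FPKM in LowMg-HFD libraries. Each call of a member that changes without these mice is given with and without them.

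Tph2 (ENSMUSG00000006764.8) lies on the minus strand at chr10:115078641-115185022 (GRCm38). It has a protein-coding transcript of 2626 bases and a transcript of 293 bases without a coding sequence, and the deposited level sums both. Maoa (ENSMUSG00000025037.6) lies on the plus strand at chrX:16619698-16687818 with 1 transcript of 4167 bases, and Htr2b (ENSMUSG00000026228.6) on the minus strand at chr1:86099026-86111970 with transcripts of 2083 and 520 bases. The 250 bases before the RefSeq start (GRCm38.p6) of these 3 genes are shown because their transcripts moved in the same direction across the diets. They were searched on both strands for TATAAA, the core of a TATA box, for CCAAT and for GGGCGG, the core of an Sp1 site, and matches are in capitals.
Tph2, chr10:115185023-115185272, minus strand: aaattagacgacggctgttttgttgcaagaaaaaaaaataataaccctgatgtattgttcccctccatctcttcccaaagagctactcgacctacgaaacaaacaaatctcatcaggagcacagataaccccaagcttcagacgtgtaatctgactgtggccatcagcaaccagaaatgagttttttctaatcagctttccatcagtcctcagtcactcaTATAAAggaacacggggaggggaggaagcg
Maoa, chrX:16619448-16619697, plus strand: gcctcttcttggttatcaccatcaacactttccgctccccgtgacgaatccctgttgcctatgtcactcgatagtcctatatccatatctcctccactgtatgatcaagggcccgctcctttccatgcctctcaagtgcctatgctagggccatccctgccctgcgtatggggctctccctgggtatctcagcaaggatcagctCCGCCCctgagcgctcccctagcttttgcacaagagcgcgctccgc
Htr2b, chr1:86111981-86112230, minus strand: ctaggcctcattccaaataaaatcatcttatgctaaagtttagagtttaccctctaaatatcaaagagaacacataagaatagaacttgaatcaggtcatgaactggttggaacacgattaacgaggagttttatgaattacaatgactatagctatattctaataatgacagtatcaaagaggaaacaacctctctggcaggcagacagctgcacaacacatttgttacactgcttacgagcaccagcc
Only the Tph2 window held TATAAA, beginning 30 bases before the start, a match found in 12.4% of the 32851 promoter windows of the same length. Only the Maoa window held GGGCGG, on the opposite strand and beginning 46 bases before the start, as did 32.7% of all windows. CCAAT, found in 33.8% of windows, was in none of the 3, the Htr2b window had none of the motifs, and no matches overlapped. No motif of these was thus shared by the 3 windows.

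Tph2 was high in NormMg-HFD mice, lower in LowMg-HFD mice and close to the lower end of the scale in both LFD groups. In NormMg-HFD mice the level was 28.65, 38.30, 46.54, 31.65 and 25.85 FPKM, a mean of 34.2 ± 8.31 (SD, n = 5). In LowMg-HFD mice it was 3.46, 12.82, 0.91, 5.59 and 2.93 FPKM, a mean of 5.14 ± 4.60 (SD, n = 5). All 5 LowMg-HFD mice thus lay below every NormMg-HFD mouse, and the highest of them, mouse 2, reached 12.82 FPKM where the lowest NormMg-HFD mouse had 25.85. In NormMg-LFD mice the level was 0.65, 0.40, 0.61 and 0.92 FPKM, a mean of 0.645 ± 0.214 (SD, n = 4). In LowMg-LFD mice it was 0.91, 0.72, 0.26, 0.33 and 0.33 FPKM, a mean of 0.510 ± 0.288 (SD, n = 5). The LFD groups overlapped, and LowMg-HFD mouse 3, at 0.91 FPKM, lay inside their range.

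**Figure D1:**
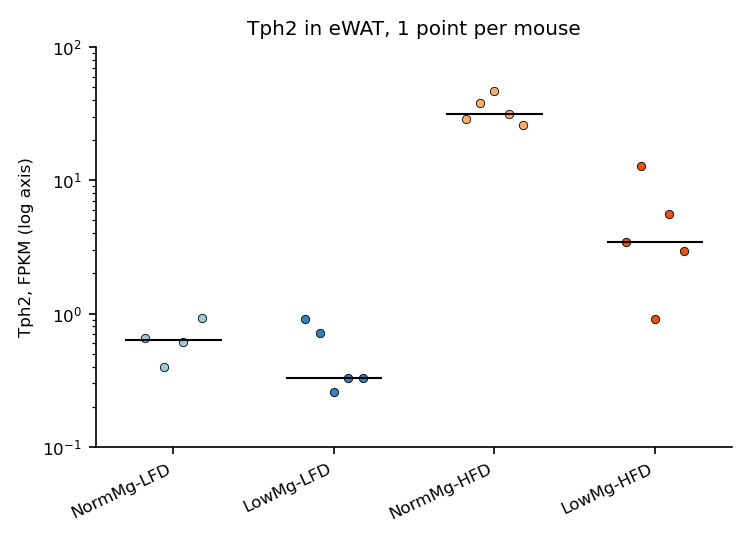
Level of Tph2 in FPKM on a log axis, 1 point per mouse in each diet group, with a line at the group's median. The 5 NormMg-HFD mice sit between 25.85 and 46.54 FPKM, the LowMg-HFD mice between 0.91 and 12.82, and all LFD mice below 1.

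The ratio of the mean levels was 53.0 for NormMg-HFD over NormMg-LFD and 10.1 for LowMg-HFD over LowMg-LFD, and the mean of NormMg-HFD mice was 6.65 times that of LowMg-HFD mice. On the log2 scale, Tph2 was higher by 4.40 (SE 0.37) in NormMg-HFD than in NormMg-LFD mice and by 1.74 (SE 0.35) in LowMg-HFD than in LowMg-LFD mice. LowMg-HFD minus NormMg-HFD mice gave -2.79 (SE 0.35), and this value less the one between the LFD groups was -2.66 (SE 0.51). These 4 values use the mice by which Tph2 was chosen and carry no test. The LFD groups hold no mouse by which Tph2 was chosen. Between them Tph2 differed by -0.14 (exact two-sided permutation test over the 9 LFD mice alone, p = 0.413), which was less than the spread between mice. The fit of the 4 groups gave the same difference with a limma adjusted p of 0.966, but its spread (SE 0.37, 95% interval -0.91 to 0.65) includes that of the HFD mice. In this comparison 0 of the 8336 genes tested passed the threshold, although 547 had an unadjusted p under 0.05.

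Among those 8336 genes, the Tph2 value between the HFD groups was the second most negative. The predicted gene Gm29216 lay before it at -2.85 with an SE of 1.89, and the inhibitor of metalloproteinases Timp1 came after it at -2.64 (SE 0.49). Leaving out 1 LowMg-HFD mouse moved the Tph2 value from -2.45 (without mouse 3) to -3.16 (without mouse 2), and it was -2.89 without mouse 4.

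The reads behind these levels were estimated from genes with 1 transcript, whose low values fell on steps. Between 75.4% and 84.9% of such low values in a library lay within 0.15 of a whole number of reads. The Tph2 values of NormMg-LFD mice came to 9.81, 5.92, 8.85 and 13.83 reads. Those of LowMg-LFD mice came to 13.73, 10.75, 3.93, 4.87 and 4.92 reads. Some of these lay further from a whole number, so the estimate is approximate and for Tph2 a rough one. For the longer Tph2 transcript 1 read was worth about 0.067 FPKM. On this scale Tph2 rested on about 390 to 710 reads in NormMg-HFD mice, 14 to 189 in LowMg-HFD mice, 6 to 14 in NormMg-LFD mice and 4 to 14 in LowMg-LFD mice. In NormMg-HFD mice the level thus rests on many reads, while differences among LFD mice rest on a few reads.

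Tph1, the hydroxylase of peripheral tissues, stayed near the lower end of the scale in all groups and did not show the pattern of Tph2. Its level was 0.35, 0.36, 0.93 and 0.20 FPKM in NormMg-LFD mice and 0.10, 0.36, 0.04, 0.16 and 0.31 FPKM in LowMg-LFD mice. It was 0.46, 0.39, 0.31, 0.39 and 0.04 FPKM in NormMg-HFD mice and 1.06, 0, 0.39, 0.40 and 0 FPKM in LowMg-HFD mice. All groups overlapped. In NormMg-HFD mice the mean of Tph2 was 34.2 FPKM beside 0.318 FPKM for Tph1, both per length, whereas in NormMg-LFD mice the means were 0.645 and 0.460 FPKM. The log2 difference of Tph1 was 0.01 between the HFD groups (95% interval -0.36 to 0.39, limma adjusted p = 1) and -0.13 between NormMg-HFD and NormMg-LFD mice (95% interval -0.53 to 0.26, limma adjusted p = 0.72).

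Tph1, Ddc, Slc6a4, Htr2a and Htr2b did not reach the filter of 8 FPKM, so that of the 7 members 2, Tph2 and Maoa, were among the 8336 genes tested. The 5 others were read from a fit over all 24237 genes and by exact two-sided permutation tests, 20 in all, of which 5 had a p under 0.05. The smallest p that these tests allow is 0.00794 for 5 mice against 5 and 0.0159 for 5 against 4. The share of all genes with an exact p under 0.05 was not computed. By the unadjusted limma p of the fit over all 24237 genes, 4085 were under 0.05 for Mg2+ on the HFD and 1192 for Mg2+ on the LFD. For fat the numbers were 6187 on NormMg and 3683 on LowMg. In the fit over all genes 5.1% of genes were called for Mg2+ on the HFD (1.24% higher, 3.85% lower), 0.00413% for Mg2+ on the LFD and 15.1% for fat on NormMg (9.72% higher, 5.34% lower). For fat on LowMg 3.96% were called (3.09% higher, 0.875% lower), and for the interaction 0.00825%.

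Ddc makes serotonin from 5-hydroxytryptophan and also dopamine from L-DOPA. It had its lowest mean in NormMg-HFD mice (0.584 FPKM) but its lowest median in LowMg-LFD mice (0.41 against 0.50 FPKM). Its level was 0.95, 2.34, 4.81 and 1.36 FPKM in NormMg-LFD mice and 0.55, 0.50, 0.43, 0.48 and 0.96 FPKM in NormMg-HFD mice. It was 0.61, 1.01, 1.22, 3.75 and 0.49 FPKM in LowMg-HFD mice and 0.21, 0.41, 0.41, 2.22 and 0.97 FPKM in LowMg-LFD mice. NormMg-HFD mice overlapped NormMg-LFD mice by 1 value. Their log2 difference was -0.97 (SE 0.36, limma adjusted p = 0.085; exact two-sided permutation test, p = 0.0317), which did not pass the threshold over all genes. The highest Ddc level of each of the other groups was in mouse 4, and in these mice the epididymis and testis markers were at 3.08 (NormMg-LFD), 4.53 (LowMg-HFD) and 2.23 (LowMg-LFD), against 0.12 to 1.14 in NormMg-HFD mice. The levels did not run in parallel throughout, since NormMg-LFD mouse 5 had 3.14 beside 1.36 FPKM of Ddc and LowMg-LFD mouse 1 had 2.24 beside 0.21 FPKM. The part of these markers in the Ddc values was not tested. Without NormMg-LFD mouse 3 and LowMg-HFD mouse 4 the difference was -0.93 (limma adjusted p = 0.0807), and without LowMg-HFD mouse 4 alone it was -0.97 (limma adjusted p = 0.0382).

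Maoa, the enzyme of the outer mitochondrial membrane that deaminates serotonin, rose with the HFD and fell from NormMg-HFD to LowMg-HFD mice. Its level was 10.08, 9.30, 9.90 and 10.95 FPKM in NormMg-LFD mice and 8.86, 9.63, 10.70, 8.73 and 9.87 FPKM in LowMg-LFD mice. It was 16.17, 17.19, 21.26, 22.70 and 19.86 FPKM in NormMg-HFD mice and 12.59, 16.35, 10.98, 12.66 and 12.58 FPKM in LowMg-HFD mice. Every HFD mouse lay above every LFD mouse, and 4 of 5 LowMg-HFD mice lay below all NormMg-HFD mice, with mouse 2 inside their range. The share of all genes with groups as far apart was not computed, so the separation is a description. The means were 19.4 ± 2.73 (SD, n = 5) in NormMg-HFD and 13.0 ± 1.99 (SD, n = 5) in LowMg-HFD mice, against 10.1 ± 0.682 (SD, n = 4) and 9.56 ± 0.803 (SD, n = 5) in NormMg-LFD and LowMg-LFD mice.

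For Maoa the log2 difference between LowMg-HFD and NormMg-HFD mice was -0.54 (SE 0.11, limma adjusted p = 0.00343), in a comparison where 18.5% of the genes tested were called, 5.58% higher and 12.9% lower. NormMg-HFD exceeded NormMg-LFD mice by 0.88 (SE 0.12, limma adjusted p = 1.01e-05), where 37.4% of genes were called (24.6% higher, 12.8% lower), and LowMg-HFD exceeded LowMg-LFD mice by 0.40 (SE 0.11, limma adjusted p = 0.0171), where 15.9% were called (12.4% higher, 3.51% lower). The last call was lost without LowMg-HFD mouse 2 (limma adjusted p = 0.0619), whereas the fall between the HFD groups was called under all 29 alternatives tried (limma adjusted p from 0.0011 to 0.0169). On the LFD the difference was -0.07 (SE 0.12, limma adjusted p = 0.936). The interaction, the Mg2+ difference on the HFD less the one on the LFD, was -0.48 (SE 0.16, limma adjusted p = 0.102) and did not pass the threshold, in a comparison where 1.25% of genes were called, although it passed without LowMg-HFD mouse 2 (-0.55, limma adjusted p = 0.0389).

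Slc6a4, the serotonin transporter of neurons and platelets, was low in every group. Its level was 0.40, 1.11, 0.78 and 3.71 FPKM in NormMg-LFD mice and 0.50, 0.74, 0.28, 1.02 and 0.51 FPKM in LowMg-LFD mice. It was 0.84, 0.84, 0.19, 1.11 and 0.14 FPKM in NormMg-HFD mice and 0.56, 0.13, 0.94, 0.38 and 0.83 FPKM in LowMg-HFD mice. NormMg-LFD mouse 5, the highest, held a level of 3.14 over the epididymis and testis markers, whereas LowMg-HFD mouse 4, at 4.53, had 0.38 FPKM of Slc6a4 and NormMg-LFD mouse 4, at 3.08, had 0.78 FPKM. The part of these cells in its value was not tested. The log2 difference between the HFD groups was -0.03 (95% interval -0.61 to 0.55, limma adjusted p = 1), and no comparison passed the threshold.

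Htr2b, a receptor coupled to Gq that raises intracellular calcium, followed the order of Tph2 at a lower level. It was at 0, 0.08, 0.34 and 0.50 FPKM in NormMg-LFD mice and at 0.35, 0, 0, 0.08 and 0.70 FPKM in LowMg-LFD mice. It was at 5.26, 3.15, 4.71, 3.48 and 2.78 FPKM in NormMg-HFD mice and at 2.39, 2.48, 0.70, 0.35 and 1.74 FPKM in LowMg-HFD mice. All LowMg-HFD mice lay below all NormMg-HFD mice, and the LFD groups overlapped each other and the lowest LowMg-HFD mice. The share of all genes with HFD groups as fully apart was not computed, so the separation is a description. By the estimate above these levels rested on 33 to 63 reads in NormMg-HFD, 4 to 29 in LowMg-HFD, 0 to 6 in NormMg-LFD and 0 to 8 in LowMg-LFD mice.

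In NormMg-HFD mice Htr2b exceeded NormMg-LFD mice by a log2 of 1.98 (SE 0.27, limma adjusted p = 7.47e-05; exact two-sided permutation test, p = 0.0159), a call kept under all 29 alternatives tried. Between the HFD groups it fell by 1.02 on the log2 scale (SE 0.26, limma adjusted p = 0.0288; exact two-sided permutation test, p = 0.00794). This call was lost without NormMg-HFD mouse 1, 3 or 4 or LowMg-HFD mouse 3, 4 or 5 (limma adjusted p from 0.0529 to 0.0906), and without both libraries that stood apart the value was -0.81 (limma adjusted p = 0.0746). LowMg-HFD exceeded LowMg-LFD mice by 0.98 (SE 0.26, limma adjusted p = 0.0402; exact two-sided permutation test, p = 0.0397), a call lost without any of NormMg-LFD mouse 3, NormMg-HFD mouse 2 or 4, LowMg-HFD mouse 1, 2 or 5 and LowMg-LFD mouse 1, 2, 3 or 4 (limma adjusted p from 0.0505 to 0.125). On the LFD the difference was -0.02 (SE 0.27, limma adjusted p = 1), and the interaction of -0.999 (SE 0.38) had a limma adjusted p of 0.29.

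Htr2a, the related receptor of platelets, smooth muscle and cortex, was close to the detection limit. It was at 0.06, 0.06, 0.24 and 0.23 FPKM in NormMg-LFD mice and at 0, 0, 0.11, 0.12 and 0.12 FPKM in LowMg-LFD mice. It was at 0.29, 0.40, 0.06, 0.11 and 0.23 FPKM in NormMg-HFD mice and at 0.06, 0.35, 0.23, 0.40 and 0.46 FPKM in LowMg-HFD mice. Of the LowMg-HFD mice 4 of 5 lay above all LowMg-LFD mice (log2 difference 0.27, SE 0.09, limma adjusted p = 0.119; exact two-sided permutation test, p = 0.0317), which did not pass the threshold over all genes, although it passed without LowMg-HFD mouse 1 (0.34, limma adjusted p = 0.0469). The difference was 0.09 between the HFD groups (95% interval -0.10 to 0.29, limma adjusted p = 0.626), so that the fall of Htr2b was not seen in Htr2a, though the difference between the receptors was not tested.

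**Figure D2:**
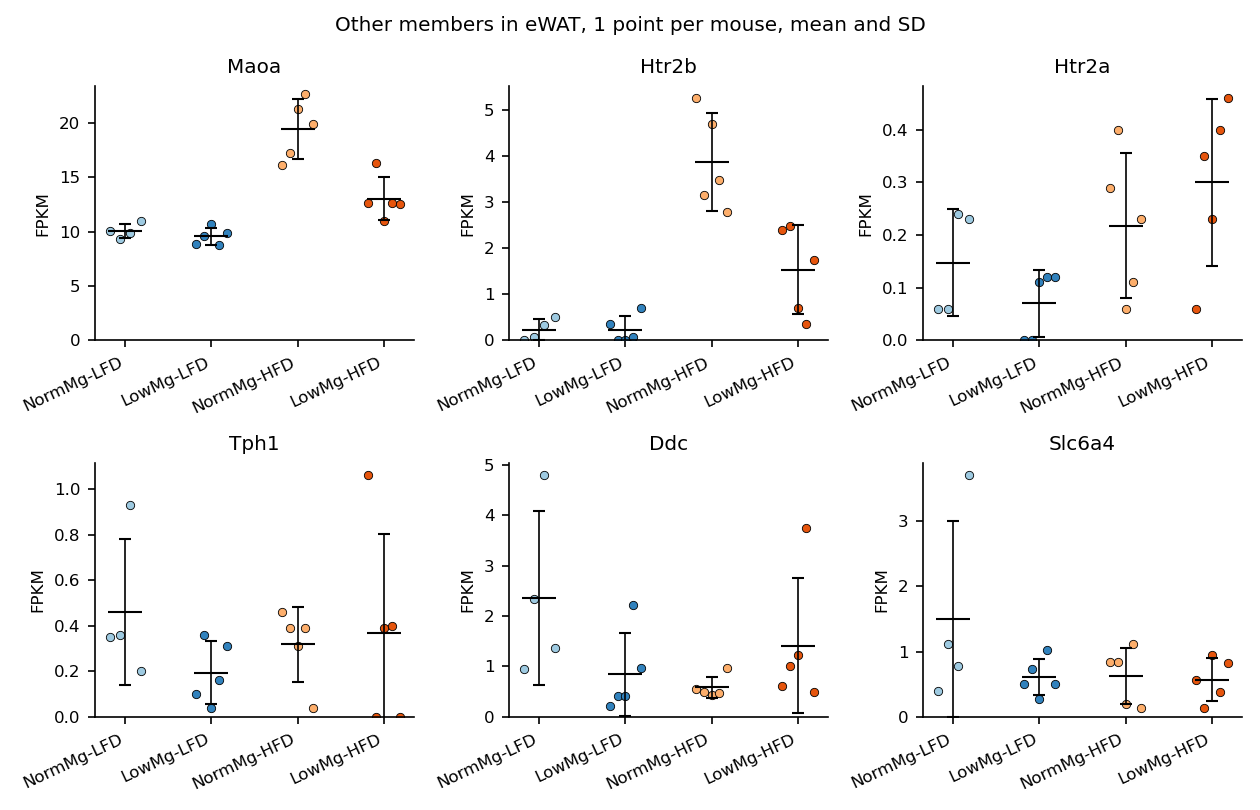
Level in FPKM of the 6 other members, 1 point per mouse in each diet group, with the group's mean as a line and the SD as an error bar. Maoa and Htr2b are highest in NormMg-HFD mice, at 16.17 to 22.70 and 2.78 to 5.26 FPKM, while the groups of Htr2a, Tph1, Ddc and Slc6a4 overlap.

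**Figure D3:**
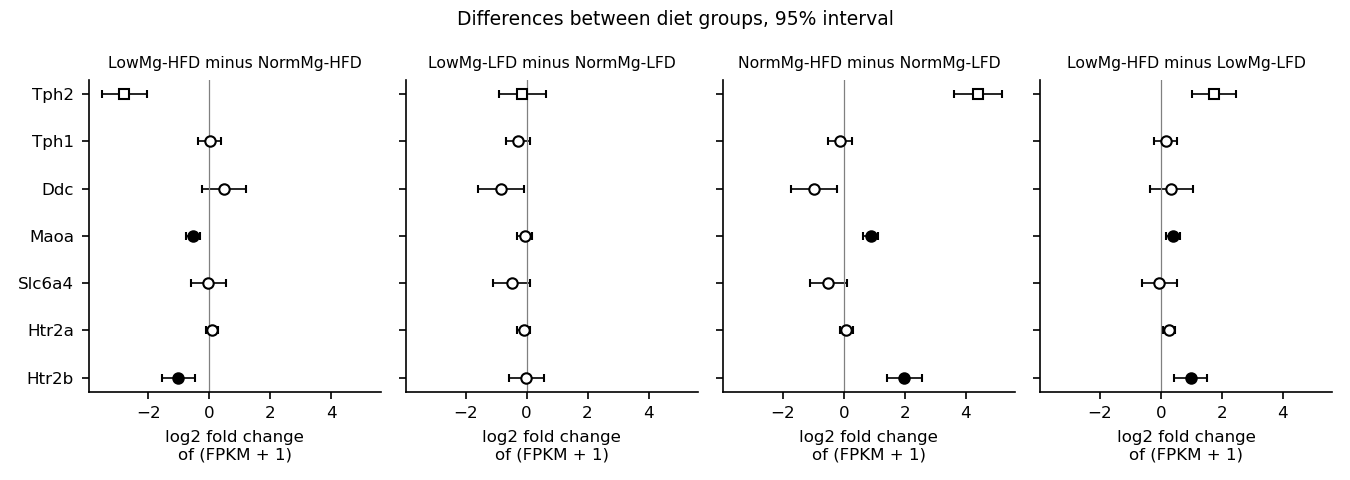
Log2 fold change of FPKM + 1 with its 95% interval for each member in 4 comparisons of diet groups. Filled points passed the limma threshold of 0.05, squares mark Tph2, which was tested only between the LFD groups, and between the LFD groups no point is filled.

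In order of level, Tph2 was highest in NormMg-HFD, then LowMg-HFD, NormMg-LFD and LowMg-LFD mice, and the last pair did not differ beyond its spread. The order was the same for Maoa and Htr2b, again with the LFD groups not told apart. Over the 19 mice the Pearson correlation of log2 levels with Tph2 was 0.956 for Maoa and 0.91 for Htr2b, against 0.361 for Htr2a, -0.02 for Tph1, -0.261 for Slc6a4 and -0.321 for Ddc. These values describe mice that fall into diet groups and share their libraries, and they largely restate the group order.

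The other genes of the pathway were read from lists of 57 genes, of which 52 had a row in the table, Tph2 included, and the serotonin receptors Htr1a, Htr1f, Htr2c, Htr4 and Htr5a were not analysed here. Leaving out Tph2, 13 of 51 passed the filter. Of these 13, 4 differed between the HFD groups, 3 higher and 1 lower in LowMg-HFD mice, beside 18.5% of all genes tested. Between NormMg-HFD and NormMg-LFD mice 6 of 13 differed, 2 higher and 4 lower, beside 37.4% of all genes, and between LowMg-HFD and LowMg-LFD mice 7 of 13 differed, 4 higher and 3 lower, beside 15.9%. On the LFD 0 of 13 differed by Mg2+, and 0 of 13 passed for the interaction. The median log2 difference of the 13 genes was -0.09 between the HFD groups and 0.01 for fat on NormMg, against -0.04 and 0.07 over all genes tested.

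The cofactor genes did not move together. Tetrahydrobiopterin is made from GTP by the enzymes of Gch1, Pts and Spr and is restored after each round by those of Pcbd1 and Qdpr. Pts fell from 54.0 ± 8.78 (SD, n = 4) FPKM in NormMg-LFD to 27.5 ± 1.56 (SD, n = 5) in NormMg-HFD mice (log2 difference -0.94, SE 0.12, limma adjusted p = 1.04e-05). It was higher by 0.42 (SE 0.12, limma adjusted p = 0.0189) in LowMg-HFD mice, at 37.5 ± 7.03 FPKM (SD, n = 5), a call lost without LowMg-HFD mouse 3 or 5 (limma adjusted p = 0.0613 and 0.053). Pts thus ran opposite to Tph2 across the diets. Gch1, the first and rate-setting step, had 1.46 ± 0.407 FPKM (SD, n = 4) in NormMg-LFD, 1.29 ± 0.302 (SD, n = 5) in LowMg-LFD, 2.96 ± 0.595 (SD, n = 5) in NormMg-HFD and 2.01 ± 0.282 (SD, n = 5) in LowMg-HFD mice. In the fit over all genes Gch1 rose with the HFD on NormMg by 0.69 (SE 0.16, limma adjusted p = 0.00512), and its difference of -0.39 (SE 0.15) between the HFD groups did not pass (limma adjusted p = 0.165).

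Spr, Qdpr and Pcbd2 stayed within 35.6 to 43.2, 49.6 to 54.3 and 16.1 to 21.5 FPKM in their group means and passed no comparison. Pcbd1 was at 12.04 ± 3.71 FPKM (SD, n = 5) in LowMg-LFD and 21.1 ± 6.72 (SD, n = 5) in LowMg-HFD mice, a log2 rise of 0.76 (SE 0.21, limma adjusted p = 0.0207). The call was lost without LowMg-LFD mouse 1 (limma adjusted p = 0.0708). It was also lost in the fit over all genes (limma adjusted p = 0.0639) and with only the groups compared (limma adjusted p = 0.0574). The tyrosine hydroxylase Th, which uses the same cofactor, was scarcely detected, with group means of 0 to 0.068 FPKM.

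Among the enzymes of breakdown, Maob and Aldh2 ran against Maoa. Maob, the monoamine oxidase that prefers phenylethylamine, fell from 32.5 ± 3.67 (SD, n = 4) FPKM in NormMg-LFD to 13.0 ± 1.72 (SD, n = 5) in NormMg-HFD mice (log2 difference -1.26, SE 0.13, limma adjusted p = 1.51e-06). It was higher by 0.46 (SE 0.12, limma adjusted p = 0.0138) in LowMg-HFD mice than in NormMg-HFD mice. Aldh2, the mitochondrial aldehyde dehydrogenase that acts on the aldehyde made by monoamine oxidase, fell with the HFD on NormMg by 1.08 on the log2 scale (SE 0.14, limma adjusted p = 6.61e-06), from 775 ± 70.1 (SD, n = 4) to 365 ± 33.2 (SD, n = 5) FPKM. Its difference of 0.32 (SE 0.13) between the HFD groups did not pass (limma adjusted p = 0.0935). Aanat and Asmt, which turn serotonin into melatonin, had group means of at most 0.196 and 0.113 FPKM.

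The other receptors with a row were at or near 0. The highest group mean among Htr1b, Htr1d, Htr3a, Htr3b, Htr5b, Htr6 and Htr7 was 0.365 FPKM, for Htr1b in NormMg-LFD mice. Htr2b was thus the receptor with the highest level on either HFD. The vesicle transporters Slc18a1 and Slc18a2, which load monoamines into granules, had group means of 0.268 to 1.11 and 0.430 to 0.814 FPKM and passed no comparison. Slc22a3, a low-affinity carrier that also moves serotonin, had the highest level among the transporters of monoamines listed, at 25.5 to 30.9 FPKM in the group means, and passed no comparison either.

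Tryptophan is also taken up by protein synthesis and by the kynurenine route, which opens with Ido1, Ido2 or Tdo2. Ido1 and Ido2 had group means of at most 0.388 and 0.114 FPKM, and Tdo2 of 0.412 to 1.87 FPKM. Kyat3, a kynurenine aminotransferase, was the gene of this route that passed the filter. Qprt, which turns quinolinate into an NAD precursor, rose with the HFD on NormMg by 0.68 in the fit over all genes (SE 0.20, limma adjusted p = 0.0253). Kyat3 fell from 11.6 ± 0.716 (SD, n = 4) FPKM in NormMg-LFD to 5.58 ± 0.852 (SD, n = 5) in NormMg-HFD mice (log2 difference -0.94, SE 0.14, limma adjusted p = 2.16e-05) and was higher by 0.84 (SE 0.13, limma adjusted p = 0.00178) in LowMg-HFD mice, at 10.7 ± 1.19 FPKM (SD, n = 5). Slc3a2, the heavy chain of the large neutral amino acid transporters that carry tryptophan, rose with the HFD by 0.73 on NormMg (SE 0.13, limma adjusted p = 0.000287) and by 0.52 on LowMg (SE 0.13, limma adjusted p = 0.00906). Its partner Slc7a8 rose on LowMg by 0.69 (SE 0.19, limma adjusted p = 0.0176), a call lost without LowMg-HFD mouse 1 or LowMg-LFD mouse 1 (limma adjusted p = 0.0583 and 0.0589). The Slc7a8 call was also lost in the fit over all genes (limma adjusted p = 0.0521) and with only the groups compared (limma adjusted p = 0.0525). Wars, which charges tRNA with tryptophan, stayed at 22.0 to 23.6 FPKM in the group means.

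**Figure D4:**
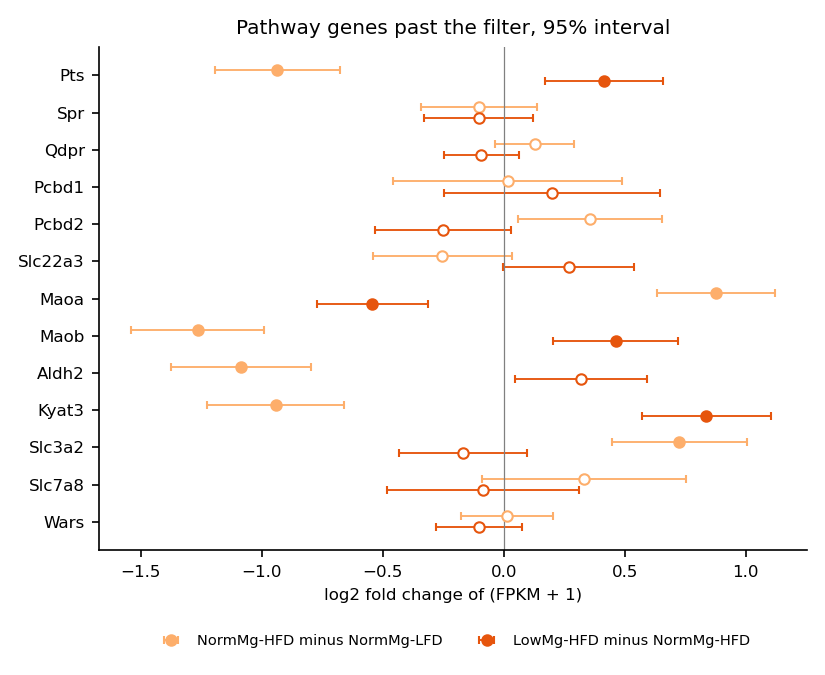
Log2 fold change of FPKM + 1 with its 95% interval for the 13 pathway genes past the filter, for NormMg-HFD minus NormMg-LFD and LowMg-HFD minus NormMg-HFD mice, which share the NormMg-HFD mice. Filled points passed the limma threshold of 0.05: Pts, Maob and Kyat3 fell with fat and were higher with low Mg2+, and Maoa did the reverse.

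The genes whose levels were most like that of Tph2 over the 19 mice were found among the 8336 genes tested by Pearson's r on the log2 scale. They were Cstb (0.973), Stom (0.972), Abi1 (0.962), Lum (0.961), Tmem206 (0.959), Gpr50 (0.958), Incenp (0.956), Maoa (0.956), Nus1 (0.956) and Capza2 (0.955). Gpr50, Tmem206 and Incenp had a mean over 8 FPKM only in NormMg-HFD mice, as did Tph2, and so passed the filter through that group alone. Among genes of low level the filter thus favours those with the pattern of Tph2. Genes under the filter, such as Htr2b, were not in the search. When the group means were taken away, so that only the spread within groups was left, r with Tph2 was between 0.531 (Abi1) and 0.798 (Gpr50), and for Maoa it was 0.587. The 10 genes were chosen by an r that already holds this spread, so the choice favours high values here. They are a description and not separate evidence that these genes vary with Tph2. With the group means kept and LowMg-HFD mouse 4 left out, the 10 values of r lay between 0.956 and 0.976. By Spearman's rho they lay between 0.788 (Lum) and 0.906 (Gpr50), and Lum came 580th in that order.

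Among these genes was Gpr50, an orphan receptor related to the melatonin receptors. Its mean level was 0.320 FPKM in NormMg-LFD, 0.114 in LowMg-LFD, 13.7 in NormMg-HFD and 5.23 in LowMg-HFD mice. Cstb, an inhibitor of lysosomal cathepsins, had means of 63.4, 63.8, 260 and 123 FPKM in the same order, and Lum, a collagen-binding proteoglycan of the matrix, 28.0, 27.9, 120 and 44.7 FPKM. No gene of the 10 but Maoa was on the pathway lists.

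Marker genes of other cell types moved with the same diets. In bulk tissue, fewer cells of a type and less RNA per cell cannot be told apart. All 10 macrophage markers were higher in NormMg-HFD than in NormMg-LFD mice and all 10 fell from NormMg-HFD to LowMg-HFD mice, both also in the fit over all genes. Of the 8 markers of lipid-associated macrophages, 8 were higher in the first comparison and 7 lower in the second in that fit. The level of the macrophage list on the log2(FPKM + 1) scale ranged from 4.95 to 5.25 in NormMg-LFD, 4.62 to 5.67 in LowMg-LFD, 6.54 to 7.42 in NormMg-HFD and 5.16 to 6.41 in LowMg-HFD mice, and none of its markers was at 0 in any group. Among LowMg-HFD mice it was 6.41, 6.29, 5.60, 5.16 and 5.66, beside 3.46, 12.82, 0.91, 5.59 and 2.93 FPKM of Tph2. The lipid-associated macrophage level of the same mice was 6.54, 6.27, 4.14, 4.22 and 4.60. Mouse 3 was thus lowest in Tph2 and in this list, whereas mouse 4 had the second highest Tph2 level and the lowest level of the macrophage list. In NormMg-HFD mice, mouse 3 was highest and mouse 5 lowest in Tph2 (46.54 and 25.85 FPKM) and in the macrophage list (7.42 and 6.54). The part of these cells in the Tph2, Maoa and Htr2b values was not tested.

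**Figure D5:**
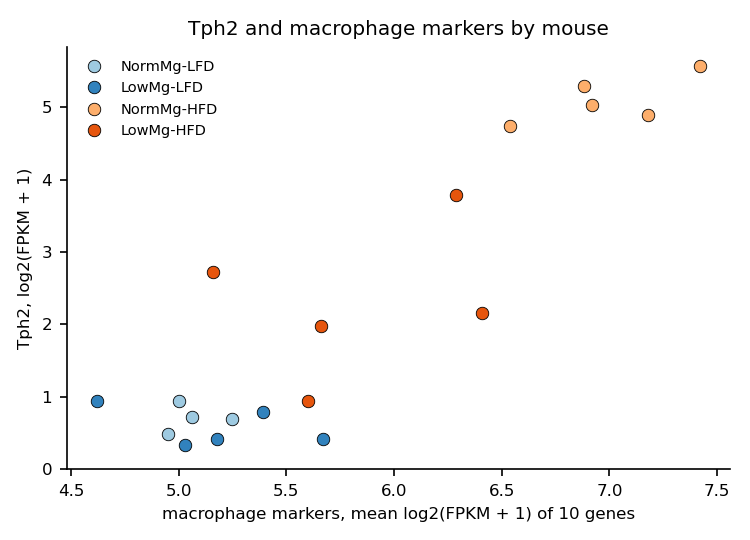
Level of Tph2 against the mean level of 10 macrophage markers, both as log2(FPKM + 1), with 1 point per mouse coloured by diet group. NormMg-HFD mice lie at the upper right, with a macrophage level of 6.54 to 7.42, and the 5 LowMg-HFD mice are spread below them at 5.16 to 6.41.

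Cells known for serotonin were read in the same way. Mast cells, which make it with Tph1 in rodents, had a level over 9 markers of 1.76 to 2.64 in NormMg-LFD, 1.52 to 2.40 in LowMg-LFD, 1.72 to 2.62 in NormMg-HFD and 1.44 to 1.91 in LowMg-HFD mice. In the fit over all genes, 5 of the 9 fell from NormMg-HFD to LowMg-HFD mice (Cma1, Mcpt4, Tpsb2, Cpa3 and Ms4a2) and 0 rose, with Kit at 0.48, Hdc at 0.32, Tpsab1 at 0.003 and Fcer1a at -0.66 not passing. For fat on NormMg 0 of 9 passed. Platelets, which store serotonin and carry Slc6a4, had a level over 6 markers of 1.22 to 1.60, 1.30 to 1.84, 1.49 to 2.00 and 1.35 to 1.59 in the same order, and their glycoprotein gene Gp9 was at 0 in 10 of the 19 mice. In the fit over all genes 2 of the 6, Pf4 and Treml1, rose with fat on NormMg and fell from NormMg-HFD to LowMg-HFD mice. Among the genes tested Pf4 differed by 0.63 (limma adjusted p = 0.0122) and -0.70 (limma adjusted p = 0.0106) in these comparisons, and Treml1, over all genes, by 0.71 (limma adjusted p = 0.00834) and -0.64 (limma adjusted p = 0.0289). The 7 neuron markers had a level of 0.57 to 1.2, 0.37 to 0.63, 0.48 to 0.79 and 0.49 to 1.16 in the same order. In the fit over all genes 1 of the 7, Elavl4, was lower with fat on NormMg (-0.24, limma adjusted p = 0.0336) and 0 passed between the HFD groups. The part of mast cells, platelets and neurons in the members' values was not tested. Of the 10 adipocyte markers, 7 were lower and 1, the hormone gene Lep, was higher in NormMg-HFD than in NormMg-LFD mice (Lep 1.69, SE 0.30, limma adjusted p = 0.00019). Of the same 10, 6 were higher and 0 lower in LowMg-HFD mice compared with NormMg-HFD mice, with Lep at -0.28 not passing.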

How the data were processed

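The authors sequenced RNA of eWAT, aligned the reads (build GRCm38, also called mm10, while the submitters' processing notes name HISAT and Bowtie2) and deposited FPKM per gene from RSEM 1.2.31. They also deposited the read count of each library (12986441 to 13027028, so that depth was even) and the percent of reads mapped (86.12 to 90.41). Of 24238 genes, 1 with a cell that is not a number was left out, 12 broken lines were skipped and 26 symbols turned into dates were restored. Batches are not given in the sources used here. Groups came from the labels. Members and gene lists were chosen with earlier results of these data known. A gene was tested if the mean of any group, and 4 or more of that group's mice, exceeded 8 FPKM (8336 genes). The test was limma 3.58.1 under R 4.3.3, on log2(FPKM + 1), with the variance trended on level, the 4 groups in 1 fit, two-sided, adjusted by the Benjamini-Hochberg method over all genes tested, threshold 0.05. Genes under the filter were read from the same fit over all 24237 genes, with exact permutation tests (scipy 1.17.1). Named are the 7 members, pathway genes that passed the threshold or had a group mean over 1 FPKM, and the 10 tested genes most like Tph2 by Pearson's r. Other list genes and the neighbours of Tph2 in the order of falls were named after their values were seen. Read counts per gene were not used here, so counting error enters only through the spread between mice. The fit was tested on simulated data. Figures used matplotlib 3.10.9 (Python 3.11.15). Promoters are from RefSeq (GRCm38.p6), transcripts from GENCODE.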

Additional observations from a re-analysis of the deposited data

Results flagged for a closer look

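Within groups, 1 of the 28 sets of member values (7 genes in 4 groups) had a mouse that lay far from the others by Dixon's ratio, whereas chance gives about 1 in 20. It was Ddc in NormMg-HFD mice, where mouse 5 had 0.96 FPKM beside 0.43 to 0.55 in the other 4 mice (ratio 0.744 on the log2 scale).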

How the results depend on the processing

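The fall of Tph2 between the HFD groups lay between -3.16 and -2.45 over 29 alternatives, and no value of a member or pathway gene that passed the threshold reversed. Leaving out 1 mouse in turn gave -3.16 to -2.45 for Tph2, and 0 to 2 pathway genes for the interaction, which was 0 with all mice. It was 1 with quantile normalization. With no filter, 10 of 51 pathway genes differed for fat on NormMg (15.1% of all genes), against 6 of 13 (37.4% of genes tested), and with only the groups compared 4 differed for fat on LowMg, against 7. Over all genes, the interaction had 0 to 482 calls, against 104. Mg2+ on the HFD had 921 without NormMg-HFD mouse 3, against 1542, and Mg2+ on the LFD had 1 with no filter, against 0. Fat on LowMg had 866 and 800 without LowMg-HFD mouse 1 or 2, 834 without LowMg-LFD mouse 1 and 725 with only the groups compared, against 1329. The cause was not tested.

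Median centring moved the median difference over all genes for fat on LowMg from 0.10 to -0.01 and quantile normalization to -0.02, and Maoa then missed the threshold there (0.29, limma adjusted p = 0.0882, and 0.27, limma adjusted p = 0.138), as it did with only the groups compared (limma adjusted p = 0.0544). The share of calls in the lower direction was 69.8% for Mg2+ on the HFD, 34.2% for fat on NormMg and 22% for fat on LowMg, but 56.7%, 49.9% and 47.2% with median centring. The Htr2b call between the HFD groups was lost in 12 of 29 alternatives and that for fat on LowMg in 13. Over all 29 the limma adjusted p ran from 0.0136 to 0.23 and from 0.0102 to 0.355. A pseudocount of 0.1 raised the Tph2 difference for fat to 5.54 on NormMg and 2.77 on LowMg.

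The labels do not say whether mice with the same number had anything else in common. The correlation of their deviations was -0.18 to 0.34, and over 0.1 in 5 of 27 pairs. The highest values were 0.34 (NormMg-LFD and LowMg-LFD mouse 4) and 0.26 (NormMg-LFD and LowMg-HFD mouse 4). With a replicate block, 4, 0, 6, 7 and 0 pathway genes differed for Mg2+ on the HFD, Mg2+ on the LFD, fat on NormMg, fat on LowMg and the interaction, and Tph2 was at -2.79 between the HFD groups. The block changed the call of Ddc for fat on NormMg (-0.89, limma adjusted p = 0.0465) and took the interaction over all genes to 0. The alternative without both libraries that stood apart, and the exact test of Tph2 over the LFD mice alone, were chosen after seeing the data. Depth limits Tph2 in LFD mice and Htr2b in LFD mice, which rest on an estimated 4 to 14 and 0 to 8 reads.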
